A study of Homo sapiens with 12 samples.

Results

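The ESCRT and vesicle biogenesis genes are 39 genes whose products form, release or load extracellular vesicles (EVs), and their RNA was followed in HEK293 cells and in the EVs that these cells shed. The members were taken by name: the ESCRT-0 to ESCRT-III subunits, the VPS4 ATPases, the ALIX and syndecan-syntenin group, the flotillins and SMPD3. All 39 were found among 57773 genes in the deposited table. HEK293 is a human embryonic kidney cell line, grown here with 10% serum. All cells, those in normoxia included, carried the 4EC1 plasmids, introduced by lipofection over 48 h, named for eGFP, EIF4E, YTHDF1/GBP1 and CD9. There were 4 groups of 3 replicates each: EVs of hypoxia cultures, EVs of normoxia cultures, hypoxia cells and normoxia cells, where hypoxia meant 24 h in a hypoxia chamber. TRIzol was used for cell RNA and the exoRNeasy midi kit for EV RNA, so the extraction method and the kind of sample cannot be told apart. No untransfected cells were analysed here, and the labels do not say that replicates were separate cultures, so each p-value reflects the spread between the sequenced samples alone, and that spread may be technical.

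The ESCRT machinery (endosomal sorting complexes required for transport) acts in relay on endosome and plasma membranes. ESCRT-0 gathers ubiquitinated cargo, ESCRT-I and ESCRT-II shape the bud, ESCRT-III filaments made of CHMP proteins cut its neck, and the VPS4 ATPase takes the filaments apart for reuse. A parallel route runs through ALIX and syntenin, which join syndecan cargo to ESCRT-III in exosome formation, with ARF6 and PLD2 upstream of it, while SMPD3 makes ceramide for budding that can proceed without ESCRT. TSG101, ALIX, syntenin and the flotillins are widely used as protein markers of EVs. The values here are of RNA, not of protein.

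Values are in units of the authors' deposited signal, which is reads divided by a factor per library. The EV libraries were the shallower ones, with 3259453 to 6129782 reads in hypoxia EVs and 5266244 to 7001767 in normoxia EVs, against 18059381 to 19422032 in hypoxia cells and 19380437 to 23400813 in normoxia cells. The 39 members together took 0.147% ± 0.00386 of reads in hypoxia EVs and 0.151% ± 0.0123 in normoxia EVs, against 0.178% ± 0.00641 in hypoxia cells and 0.183% ± 0.000864 in normoxia cells (SD, n = 3 each). With the 10 highest genes of the table left out of the totals, the shares were 0.201% ± 0.00199 in hypoxia EVs and 0.227% ± 0.0140 in normoxia EVs, against 0.205% ± 0.00598 in hypoxia cells and 0.206% ± 0.000473 in normoxia cells. VEGFA and HILPDA, textbook hypoxia targets, rose in hypoxia cells (log2 changes 1.10 ± 0.07 and 2.32 ± 0.12 SE, limma adjusted p = 7.6e-21 and 3.63e-25). In hypoxia EVs they did not pass against normoxia EVs (log2 changes -0.19 ± 0.21 and 0.22 ± 0.56 SE, limma adjusted p = 0.495 and 0.786), and their response in EVs was below that in cells (limma interaction, adjusted p = 0.00284 and 0.0243). Of 8 HEK293 marker genes, 7 were found, and their summed level was 7564 to 8317 units in hypoxia EVs, 10672 to 16556 in normoxia EVs, 8027 to 8401 in hypoxia cells and 13741 to 14297 in normoxia cells. These markers went both ways in EVs: NEFM, PAX2, SOX11 and PHOX2A were higher and IRS4, LIN28B and ZIC2 lower than in cells (limma), with log2 changes of 1.87 ± 0.11 SE for NEFM and -2.14 ± 0.13 for IRS4. SOX11 averaged only 9.65 units in hypoxia cells and 11.5 in normoxia cells. PHOX2A averaged 0.893 and 2.38 units there, 34.7 in hypoxia EVs and 4.96 in normoxia EVs. PHOX2A reached the filter of a mean of at least 10 units only through hypoxia EVs, so its call carries no weight. Signal on 6599 near-silent protein-coding genes (mean of at most 20 units in cells) averaged 16.9 ± 0.561 units per kb of exon in hypoxia EVs and 7.80 ± 3.52 in normoxia EVs, against 1.81 ± 0.139 in hypoxia cells and 1.44 ± 0.12 in normoxia cells (SD, n = 3 each). Sums of markers of other tissues were higher in EVs too: the sum over 10 blood genes was 363 to 492 units in hypoxia EVs, 209 to 332 in normoxia EVs, 53.5 to 79.5 in hypoxia cells and 63.4 to 75.5 in normoxia cells. The sum over 5 liver genes was 176 to 186, 49.95 to 145, 7.21 to 22.6 and 14.9 to 25.5 units in the same order, and that over 3 of 4 endothelial genes was 699 to 768, 143 to 440, 70.9 to 87.6 and 31.3 to 50.8 units. No marker found was at 0 in all libraries of a group, and the part of such signal in the results was not tested.

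The question of the first comparison is which of these RNAs were more or less abundant in EVs than in the cells that shed them. In EVs, 22 of the 39 members were lower and 9 were higher, which is 56.4% and 23.1% of them. Over all 24171 genes tested, 31.8% were lower and 43.1% higher, 74.9% in either direction. The members' median log2 difference was -0.58, against 0.32 over all genes. Among the 9897 coding genes that averaged at least 100 units in cells, a group drawn up after the values were seen to which 36 of the 39 members belong, 65.25% were lower and 13.1% higher, with a median of -0.76. The RNAs furthest below their cell level were those of PDCD6IP, which encodes ALIX, and of CHMP3, SDCBP (syntenin), VPS36 and TSG101; those furthest above it were SMPD3, CHMP6, CHMP1B and CHMP4B. Differences were taken on log2(value + 1) with limma and a Benjamini-Hochberg adjusted p under 0.05 as the threshold. All 39 members passed the filter of a mean of at least 10 units. In bulk RNA of this kind, fewer vesicles or cells that hold an RNA and less of it in each cannot be told apart.

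**Figure D1:**
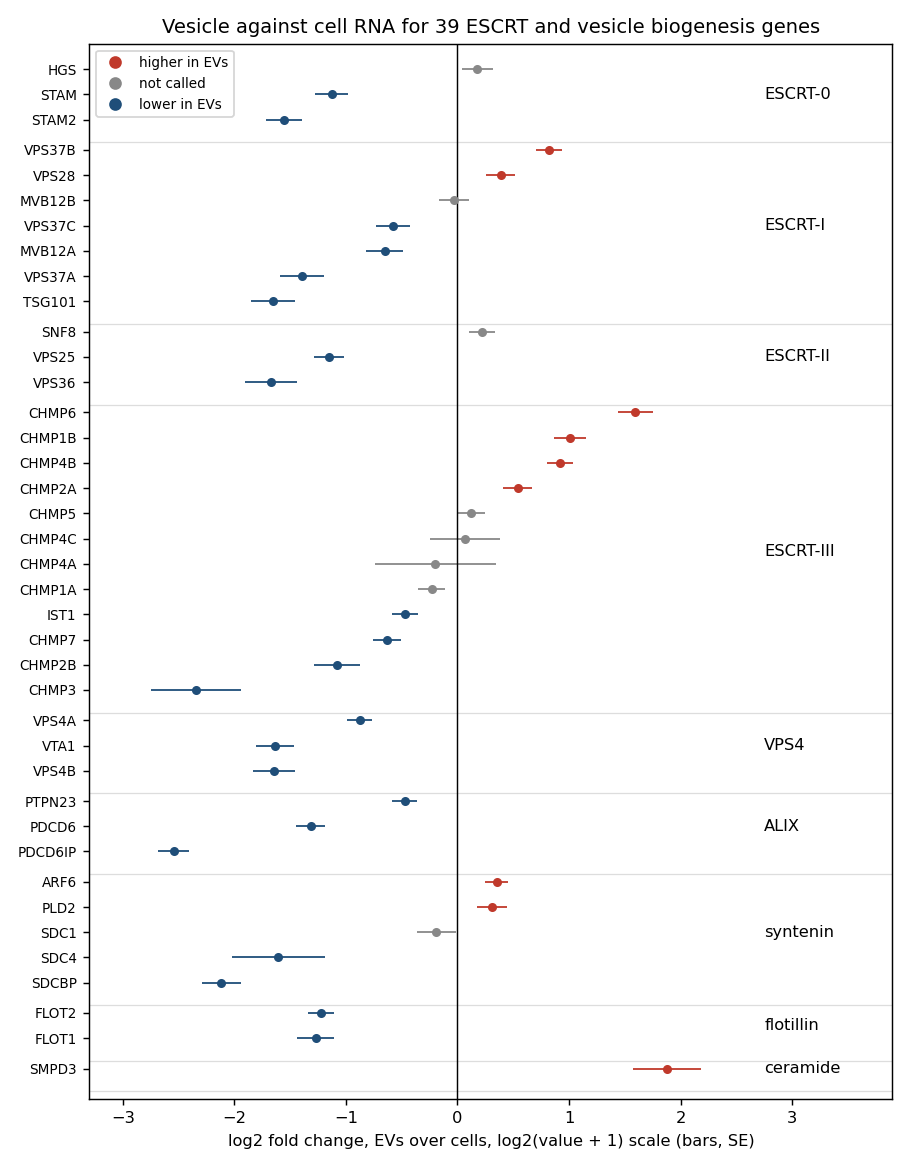
Log2 fold change of EVs over cells for each of the 39 members (horizontal axis, log2(value + 1) scale), grouped by role, with SE bars from limma over 6 EV and 6 cell libraries. The 22 members lower in EVs lie left of 0, from PDCD6IP at -2.54, and the 9 higher ones right of it, up to SMPD3 at 1.88.

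Of the ESCRT-0 genes, STAM and STAM2, adaptor subunits that bind ubiquitin, were lower in EVs, and HGS, which encodes the HRS subunit that anchors the complex to endosomes, was not called. HGS was at 1265, 1303 and 908 units in hypoxia EVs, 2184, 2619.6 and 1341 in normoxia EVs, 1302, 1336 and 1384 in hypoxia cells and 1356, 1323 and 1264 in normoxia cells. Its EV and cell ranges overlapped, with 2 normoxia EV libraries above all cells and 1 hypoxia EV library below them. STAM was at 199, 190.3 and 119 units in hypoxia EVs, 331, 272 and 215 in normoxia EVs, 478, 481 and 434 in hypoxia cells and 459, 454 and 463 in normoxia cells. STAM2 was at 102, 92.9 and 70.6 units in hypoxia EVs, 117, 164 and 99.7 in normoxia EVs, 323, 302 and 283 in hypoxia cells and 309, 308 and 327 in normoxia cells. For both genes all 6 EV libraries lay below all 6 cell libraries: STAM was 2.19-fold lower in EVs (log2 change -1.13 ± 0.15 SE, limma adjusted p = 1.34e-06) and STAM2 2.94-fold lower (log2 change -1.56 ± 0.16 SE, limma adjusted p = 5.07e-08). HGS differed by 0.18 ± 0.14 on the log2 scale (limma adjusted p = 0.246).

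ESCRT-I went both ways: 4 of its 7 genes were lower in EVs, 2 were higher and MVB12B was not called. TSG101, the subunit that recognises ubiquitin and late-domain motifs, was read at 69.5, 104 and 98.4 units in hypoxia EVs, 193, 182 and 80.1 in normoxia EVs, 306, 341 and 324 in hypoxia cells and 376, 382 and 411 in normoxia cells. Every EV library was below every cell library, and TSG101 was 3.14-fold lower in EVs (log2 change -1.65 ± 0.19 SE, limma adjusted p = 2.77e-07). The 3 interchangeable VPS37 subunits split. VPS37A was found at 107, 77.6 and 73.1 units in hypoxia EVs, 167, 121 and 66.5 in normoxia EVs, 272, 303 and 242 in hypoxia cells and 226, 249 and 247 in normoxia cells. VPS37B stood at 676, 639 and 504 units in hypoxia EVs, 1132, 1167 and 848 in normoxia EVs, 444, 398 and 464 in hypoxia cells and 464, 433 and 484 in normoxia cells. VPS37A was thus lower in every EV library than in any cell library (log2 change -1.39 ± 0.20 SE, limma adjusted p = 3.67e-06), and VPS37B was higher in every one (log2 change 0.82 ± 0.12 SE, limma adjusted p = 4.21e-06). VPS37C, from 134 to 224 units in EVs and 216 to 299 in cells, was lower in EVs with overlapping ranges (log2 change -0.58 ± 0.15 SE, limma adjusted p = 0.00227).

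VPS28, the ESCRT-I core subunit that contacts ESCRT-II, amounted to 289.9, 210.1 and 219 units in hypoxia EVs, 471, 419.8 and 414 in normoxia EVs, 253, 236 and 219.8 in hypoxia cells and 247, 278 and 242 in normoxia cells. Normoxia EVs were above all cells while hypoxia EVs overlapped them, and the call of higher in EVs (log2 change 0.39 ± 0.13 SE, limma adjusted p = 0.0115) was lost with TMM scaling and with edgeR. The other core subunits, MVB12A and MVB12B, are alternatives of each other. MVB12A was at 128, 148 and 108 units in hypoxia EVs, 119, 182 and 197 in normoxia EVs, 181, 162 and 190.4 in hypoxia cells and 287, 262 and 321 in normoxia cells. MVB12B was at 281, 257 and 247 units in hypoxia EVs, 221, 236 and 199 in normoxia EVs, 263, 229.6 and 290.0 in hypoxia cells and 227, 207 and 258 in normoxia cells. MVB12A was lower in EVs (log2 change -0.65 ± 0.16 SE, limma adjusted p = 0.00134), with EV libraries overlapping the hypoxia cells but not the normoxia cells. MVB12B had a log2 difference of -0.03 ± 0.13 (limma adjusted p = 0.836), and its EV and cell values overlapped.

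In ESCRT-II, which bridges ESCRT-I to ESCRT-III, VPS25 and VPS36 were lower in EVs and SNF8 was not called. VPS25, the subunit that recruits CHMP6, reached 143, 167 and 126 units in hypoxia EVs, 195, 252 and 182 in normoxia EVs, 305, 339.8 and 326 in hypoxia cells and 448, 467 and 471 in normoxia cells. VPS36, the subunit that binds ubiquitin and lipid, reached 58.8, 114 and 88.3 units in hypoxia EVs, 233, 90.1 and 78.2 in normoxia EVs, 321, 240.5 and 274 in hypoxia cells and 350.3, 411 and 347 in normoxia cells. EV and cell libraries did not overlap for either gene, which were 2.22-fold and 3.18-fold lower in EVs (log2 changes -1.15 ± 0.14 and -1.67 ± 0.23 SE, limma adjusted p = 2.75e-07 and 2.32e-06). SNF8 was at 486, 353 and 446 units in hypoxia EVs, 639.9, 729.7 and 559 in normoxia EVs, 416, 417 and 422 in hypoxia cells and 479, 475 and 489 in normoxia cells, with overlapping ranges (log2 change 0.22 ± 0.12 SE, limma adjusted p = 0.0991).

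ESCRT-III, the role with the most genes, had the widest range of log2 differences, from -2.34 for CHMP3 to 1.60 for CHMP6. A range tends to widen with the number of genes. CHMP3 also lay at or below the signal per kb on near-silent genes in both EV groups. Of 12 genes, CHMP1B, CHMP2A, CHMP4B and CHMP6 were higher in EVs, CHMP2B, CHMP3, CHMP7 and IST1 were lower, and the other 4 were not called. CHMP4B encodes the main filament subunit of the neck-cutting polymer and was read at 1383, 1133 and 963 units in hypoxia EVs, 2048, 2412 and 1736 in normoxia EVs, 878, 723 and 746 in hypoxia cells and 863, 805 and 854 in normoxia cells. CHMP6, which nucleates that filament on ESCRT-II, was read at 351, 283 and 484 units in hypoxia EVs, 771, 598 and 506 in normoxia EVs, 168, 136 and 142 in hypoxia cells and 163, 143 and 190.1 in normoxia cells. CHMP1B, a late-acting subunit that recruits VPS4 and spastin, was read at 289, 257 and 272 units in hypoxia EVs, 449.6, 461 and 334 in normoxia EVs, 130.3, 159 and 178 in hypoxia cells and 165, 169 and 204 in normoxia cells. For these 3 genes the lowest EV library stood above the highest cell library, and hypoxia EVs stood between normoxia EVs and cells in group mean. CHMP6 was 3.02-fold higher in EVs (log2 change 1.60 ± 0.16 SE, limma adjusted p = 2.37e-08), CHMP1B 2.01-fold (log2 change 1.01 ± 0.14 SE, limma adjusted p = 3.53e-06) and CHMP4B 1.89-fold (log2 change 0.92 ± 0.11 SE, limma adjusted p = 5.94e-07).

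CHMP2A, which caps and remodels the filament with CHMP3, was at 632, 658 and 525 units in hypoxia EVs, 1149, 1366 and 772 in normoxia EVs, 572, 503 and 520.3 in hypoxia cells and 535, 542 and 643 in normoxia cells. It was higher in EVs (log2 change 0.54 ± 0.13 SE, limma adjusted p = 0.00108), but hypoxia EVs overlapped the cells. CHMP2B, its close relative mutated in a form of frontotemporal dementia, was at 88.2, 97.4 and 189 units in hypoxia EVs, 240.3, 432 and 170.0 in normoxia EVs, 339, 319.7 and 324 in hypoxia cells and 402, 423 and 435 in normoxia cells. CHMP3 was at 49.4, 9.13 and 40.4 units in hypoxia EVs, 54.7, 46.8 and 9.77 in normoxia EVs, 133, 114 and 140.0 in hypoxia cells and 161, 151 and 193 in normoxia cells. CHMP3 was 5.08-fold lower in EVs with no overlap (log2 change -2.34 ± 0.40 SE, limma adjusted p = 2.97e-05), and CHMP2B 2.11-fold lower with overlap in 1 normoxia EV library (log2 change -1.08 ± 0.21 SE, limma adjusted p = 0.000104). CHMP7, a nuclear envelope subunit, and IST1, a CHMP-like filament protein, were lower by smaller amounts with overlapping ranges (log2 changes -0.63 ± 0.13 and -0.47 ± 0.12 SE, limma adjusted p = 0.000161 and 0.00151). CHMP7 spanned 194 to 440.1 units in EVs and 416 to 505 in cells, and IST1 486 to 956 in EVs and 896 to 1034 in cells.

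The ESCRT-III genes not called between EVs and cells were CHMP1A, CHMP4A, CHMP4C and CHMP5. CHMP1A, a late-acting subunit like CHMP1B, was at 399, 297 and 396 units in hypoxia EVs, 616, 802 and 532 in normoxia EVs, 575, 495 and 490.4 in hypoxia cells and 605, 617 and 623 in normoxia cells. CHMP5, a regulatory subunit that binds the VPS4 cofactor VTA1, was at 677, 668 and 812 units in hypoxia EVs, 1001, 1621 and 915 in normoxia EVs, 709.6, 720.3 and 721 in hypoxia cells and 896, 996 and 1006 in normoxia cells. Both had EV values on either side of the cell values. CHMP4A and CHMP4C encode other forms of the filament subunit CHMP4. CHMP4C spanned 17.4 to 45.0 units in EVs and 26.0 to 36.9 in cells. CHMP4A was listed at 8.02, 33.5 and 12.6 units in hypoxia EVs, 4.76, 21.6 and 3.91 in normoxia EVs, 16.2, 9.27 and 18.9 in hypoxia cells and 16.1, 6.06 and 13.5 in normoxia cells. These CHMP4A values are uncertain, since 68.8% of its exon bases also belong to the annotated transcript AL096870.2 and 26.7% to AL136295.1 on the same strand, and no source used here says how reads of overlapping genes were assigned. On the same strand, other shared stretches touch VPS37B (27.9% with AC027290.2), VPS4A (21% with AC026464.4), MVB12A (15% with BISPR), CHMP3 (10.8% with RNF103-CHMP3) and SMPD3 (10.5% with AC099521.2). Of these other genes, AC027290.2, BISPR and AC099521.2 are not among those deposited. Antisense stretches include those of VPS4A (22% with COG8), CHMP6 (21.5% with AC127496.6), CHMP1B (18.1% with CHMP1B-AS1), CHMP4C (13.4% with ZFAND1), MVB12A (11.6% with AC010319.3) and HGS (11.4% with AC139530.1). SNF8, VPS25, CHMP1A, CHMP1B, CHMP4A, CHMP4B, CHMP5, VTA1, PDCD6IP, PDCD6, SDCBP and SDC4 also have pseudogene copies listed under their names, with which reads could be split.

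All 3 genes of the disassembly step were lower in EVs without overlap. VPS4A, an AAA ATPase that pulls ESCRT-III filaments apart, was at 287, 306 and 300.1 units in hypoxia EVs, 485, 526 and 377 in normoxia EVs, 630.1, 570.0 and 597 in hypoxia cells and 818, 752 and 748 in normoxia cells. Its paralog VPS4B was at 103, 67.0 and 50.4 units in hypoxia EVs, 97.5, 121 and 76.2 in normoxia EVs, 222, 276 and 229 in hypoxia cells and 284, 275 and 283 in normoxia cells. VTA1, the cofactor that stabilises and activates VPS4, was at 149.6, 268 and 371 units in hypoxia EVs, 354, 328 and 258 in normoxia EVs, 889, 767 and 775 in hypoxia cells and 839, 981 and 937 in normoxia cells. The differences were 1.84-fold, 3.14-fold and 3.11-fold lower in EVs (log2 changes -0.88 ± 0.11, -1.65 ± 0.19 and -1.64 ± 0.17 SE, limma adjusted p = 9.64e-07, 1.9e-07 and 4.16e-08).

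The ALIX group was also lower throughout. PDCD6IP (ENSG00000170248, chr3:33798352-33869707, + strand, GRCh38 with GENCODE 29) encodes ALIX, which links syntenin and viral late domains to CHMP4, and was read at 198, 253 and 275 units in hypoxia EVs, 407, 216 and 338 in normoxia EVs, 1562, 1421 and 1402 in hypoxia cells and 1683, 1689 and 1853 in normoxia cells. The highest EV library, with 407 units, was far below the lowest cell library, with 1402 units. This 5.83-fold difference (log2 change -2.54 ± 0.14 SE, limma adjusted p = 6.39e-12) was the furthest below 0 of all 39 members. PDCD6, the calcium-binding ALG-2 protein that partners ALIX, was at 244, 192 and 232 units in hypoxia EVs, 169, 173 and 178 in normoxia EVs, 476, 397 and 490.4 in hypoxia cells and 596, 532 and 467 in normoxia cells, with no overlap (log2 change -1.32 ± 0.13 SE, limma adjusted p = 1.89e-08). PTPN23, an ALIX relative with a Bro1 domain, was at 586, 544 and 439 units in hypoxia EVs, 825, 695 and 618 in normoxia EVs, 877, 801 and 770.4 in hypoxia cells and 825, 860.3 and 929.6 in normoxia cells, and its smaller decrease came with overlapping ranges (log2 change -0.47 ± 0.11 SE, limma adjusted p = 0.000847).

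Genes of the syndecan-syntenin route did not move as a block. SDCBP, the syntenin adaptor that binds both ALIX and syndecan tails, was at 70.8, 97.4 and 119 units in hypoxia EVs, 212, 180.2 and 99.7 in normoxia EVs, 524, 507 and 518 in hypoxia cells and 536, 535 and 544 in normoxia cells. It was 4.33-fold lower in EVs without overlap (log2 change -2.12 ± 0.17 SE, limma adjusted p = 1.88e-09). SDC4, a heparan sulfate syndecan, was at 82.8, 83.7 and 106 units in hypoxia EVs, 7.14, 79.3 and 109 in normoxia EVs, 208, 213 and 222 in hypoxia cells and 161, 151 and 178 in normoxia cells. All EV libraries were below all cell libraries (log2 change -1.61 ± 0.42 SE, limma adjusted p = 0.00179), but 1 normoxia EV library set much of the size. Without normoxia EV replicate 1 the log2 change was -1.02 (limma adjusted p = 1.2e-05), and with the near-silent density removed and libraries set to equal totals it missed the threshold (-2.34, limma adjusted p = 0.053). With equal totals alone it was -1.55 (limma adjusted p = 0.00438). SDC1, another syndecan, had 116 to 216 units in EVs and 154 to 257 in cells and was not called (log2 change -0.19 ± 0.18 SE, limma adjusted p = 0.337).

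ARF6, the small GTPase that activates PLD2 on this route, was at 814, 1019 and 913 units in hypoxia EVs, 1858, 1479 and 1405 in normoxia EVs, 862, 987 and 976 in hypoxia cells and 948, 918 and 933 in normoxia cells. Normoxia EVs were above all cells, hypoxia EVs overlapped them, and the call of higher in EVs (log2 change 0.35 ± 0.10 SE, limma adjusted p = 0.00504) was lost with TMM scaling and with edgeR. PLD2, the phospholipase that makes phosphatidic acid for syntenin vesicles, was at 269, 268 and 249.7 units in hypoxia EVs, 212, 225 and 219 in normoxia EVs, 201, 181 and 168 in hypoxia cells and 199.8, 189 and 222 in normoxia cells. Its call of higher in EVs (log2 change 0.31 ± 0.13 SE, limma adjusted p = 0.0417) was the weakest of the 31, with overlapping ranges. It was lost with no filter, TMM scaling, edgeR and a replicate block, and when any one of these was left out: normoxia cell replicate 1 or 2, hypoxia cell replicate 2 or 3, normoxia EV replicate 2 or hypoxia EV replicate 1 or 2.

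Both flotillins, scaffold proteins of membrane microdomains, were lower in EVs. FLOT1 was at 156, 323 and 265 units in hypoxia EVs, 549, 468 and 303 in normoxia EVs, 691, 696 and 674 in hypoxia cells and 760.4, 874 and 967 in normoxia cells. FLOT2 was at 315, 367 and 247 units in hypoxia EVs, 364, 375 and 330.3 in normoxia EVs, 744, 699 and 722 in hypoxia cells and 836, 773 and 878 in normoxia cells. No EV library reached any cell library for either gene (2.41-fold and 2.34-fold lower, log2 changes -1.27 ± 0.17 and -1.23 ± 0.12 SE, limma adjusted p = 1.23e-06 and 1.56e-08). SMPD3 (ENSG00000103056, chr16:68358325-68448688, - strand), which encodes neutral sphingomyelinase 2 and is the only member of the ceramide route, was at 295, 201 and 275 units in hypoxia EVs, 42.8, 157 and 188 in normoxia EVs, 51.4, 55.1 and 61.4 in hypoxia cells and 21.6, 46.8 and 42.8 in normoxia cells. It was 3.68-fold higher in EVs (log2 change 1.88 ± 0.31 SE, limma adjusted p = 1.91e-05), although normoxia EV replicate 1 fell within the cell range. With the near-silent density removed and libraries set to equal totals, the log2 change was 1.55 and missed the threshold (limma adjusted p = 0.067), and with equal totals alone it was 1.93 (limma adjusted p = 4.78e-05).

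**Figure D2:**
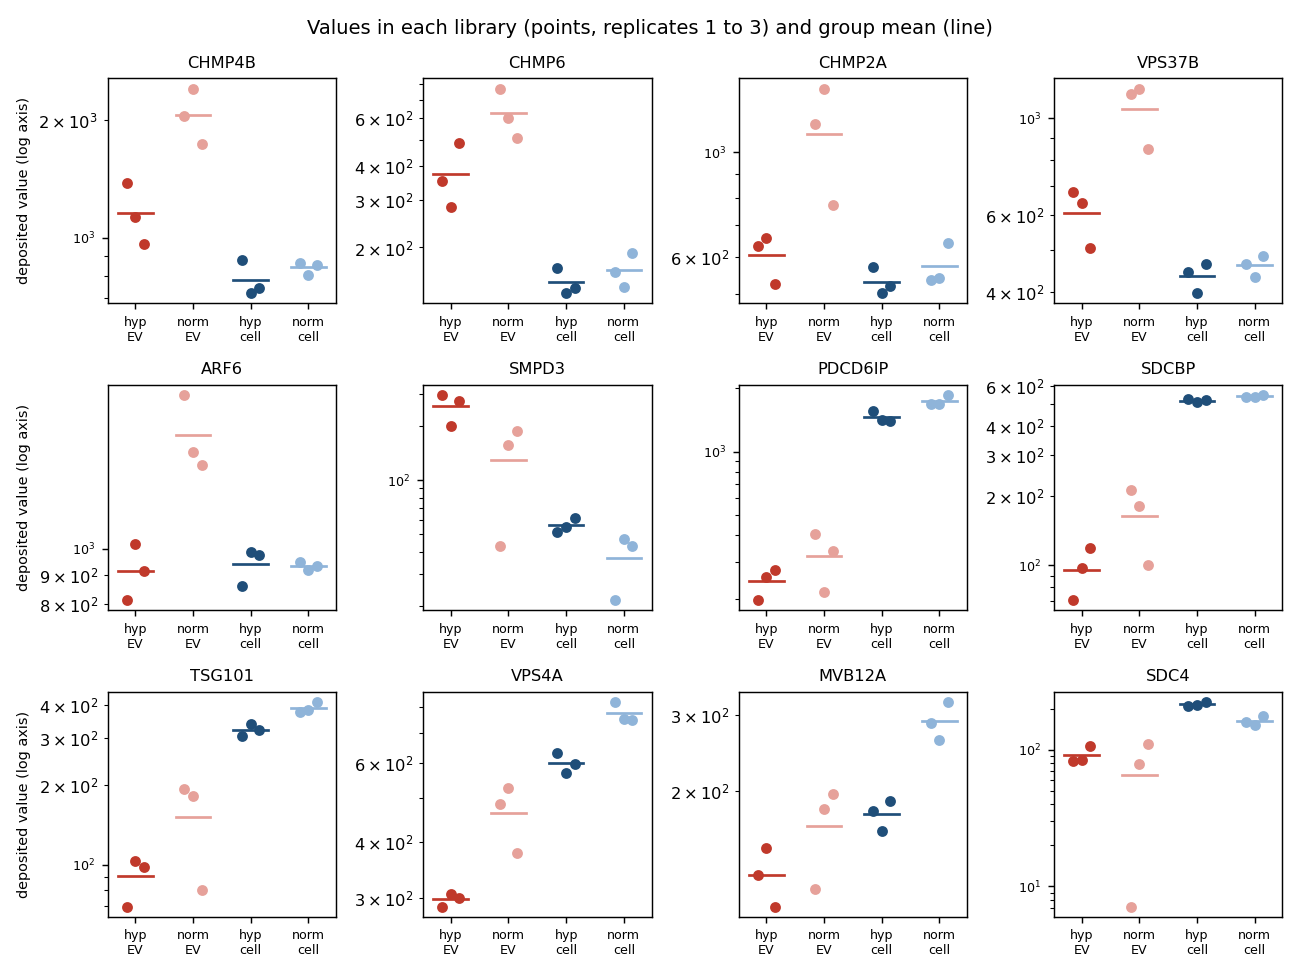
Deposited value (vertical log axis) of 12 members in each library, with replicates as points and the group mean as a line, for hypoxia EVs, normoxia EVs, hypoxia cells and normoxia cells from left to right. CHMP4B and CHMP6 lie higher in all EV libraries than in any cell library, and PDCD6IP, SDCBP, TSG101 and VPS4A lie lower, while ARF6 and CHMP2A differ from cells mainly in normoxia EVs.

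A ratio of 2 members' values (not set per length) within a library depends little on how libraries are scaled. Scaling enters only through the 1 added to each value, which matters most for low values such as those of CHMP4C and SDC4. Close relatives were therefore compared directly in 11 pairs, by an exact two-sided permutation test of 6 EV against 6 cell libraries. Benjamini-Hochberg adjustment was over the pairs. The log2 ratio of VPS37B to VPS37A averaged 3.02 ± 0.382 in EVs and 0.805 ± 0.235 in cells (SD, n = 6 each, exact permutation adjusted p = 0.00476), a 4.64-fold shift with no overlap. CHMP2A to CHMP2B averaged 2.19 ± 0.552 in EVs and 0.570 ± 0.157 in cells (exact permutation adjusted p = 0.00476), a 3.07-fold shift. CHMP1B to CHMP1A shifted 2.36-fold, VPS37B to VPS37C 2.64-fold and STAM to STAM2 1.35-fold, all without overlap and all with the same exact permutation adjusted p of 0.00476. Every pair without overlap gets this p in this test, so it adds nothing to the lack of overlap. In each of these 5 pairs the relative named first took a larger share in EVs. The order within a pair was set by hand, so the direction these pairs share is not a result. VPS37C to VPS37A (1.76-fold), CHMP4B to CHMP4C (1.81-fold), VPS4A to VPS4B (1.71-fold) and SDC1 to SDC4 (2.67-fold) shifted with overlapping ranges (exact permutation adjusted p = 0.0106 for each). The size for SDC1 to SDC4 rests in large part on normoxia EV replicate 1, where SDC4 was at only 7.14 units. That library had the highest log2 ratio of this pair, 4.74, in an EV range that began at 0.13 (SD 1.67). MVB12B to MVB12A differed by 0.62 on the log2 scale (exact permutation adjusted p = 0.05). FLOT1 to FLOT2 averaged -0.0505 ± 0.550 in EVs and -0.00528 ± 0.134 in cells on the log2 scale (exact permutation adjusted p = 0.87). In hypoxia EVs, VPS37A, STAM2 and CHMP4C lay at or below the density on near-silent genes, so the ratios that hold them rest there on values not above that signal. VPS4B was barely above that density there (17.0 against 16.9 units per kb), so its ratio has nearly the same limit.

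The members' G+C content moved with their EV-to-cell difference. The median G+C content of the longest protein-coding transcript was 58.4% for the 9 members higher in EVs, 44.4% for the 22 lower and 55.4% for the 8 not called. Across the 39 members the Spearman correlation of G+C content with the log2 difference was 0.56, and it was 0.48 over 16800 protein-coding genes tested and 0.60 over those of them with at least 100 units in cells. These are descriptions over genes that share the same 12 libraries, so no p is given. SMPD3, CHMP6 and VPS37B, all higher in EVs, have 61.1%, 64.2% and 59.3% G+C, and STAM2, CHMP2B and VPS4B, all lower, have 36.6%, 35.4% and 39.2%. Set against the quartiles of genes with at least 100 units in cells and like G+C content, 18 members lay within the band, 12 above it and 9 below it. By definition, about as many of those genes lie outside a quartile band as inside it, split evenly above and below. SMPD3, CHMP4C and CHMP4A averaged under 100 units in cells, so they were not among the genes that made the band. Their means in hypoxia and normoxia cells were 55.9 and 37.1, 29.5 and 35.4, and 14.8 and 11.9 units. Above it were VPS37B, CHMP1B, CHMP2A, CHMP4B, CHMP6, ARF6 and SMPD3, which were higher in EVs, CHMP2B and IST1, which were lower, and SNF8, CHMP4C and CHMP5, which were not called. Below it were VPS37C, MVB12A, VPS25, CHMP3, PDCD6IP, PTPN23, SDC4, FLOT1 and FLOT2, all lower in EVs. CHMP1B with 41.5% and ARF6 with 42.7% G+C were higher in EVs at a G+C content below the median of the members lower in EVs, and FLOT1 with 57.3% and FLOT2 with 58.1% were lower in EVs at one near the median of those higher. The part of G+C content in the differences was not tested.

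**Figure D3:**
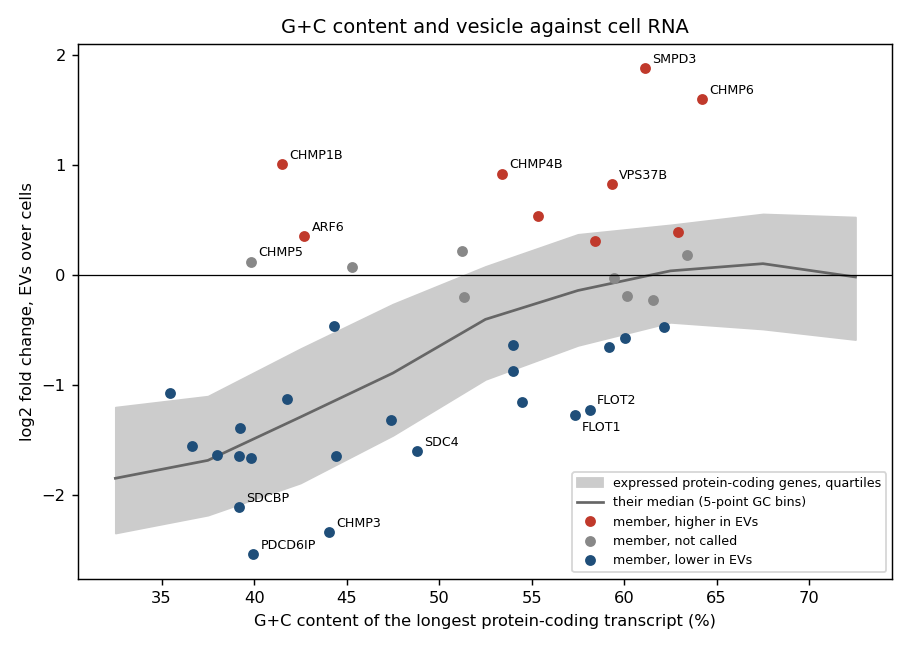
Log2 fold change of EVs over cells (vertical axis) against the G+C content in percent of each gene's longest protein-coding transcript (horizontal axis), for the 39 members (points, coloured by call) over the quartile band and median of protein-coding genes with at least 100 units in cells. Of the members 18 lie within the band, 12 above it (such as CHMP6, CHMP4B and CHMP1B) and 9 below it (such as PDCD6IP, FLOT1 and FLOT2). By definition, about as many of the genes behind the band lie outside it as inside it. SMPD3, CHMP4A and CHMP4C averaged under 100 units in cells and are not among those genes.

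Set per kb of exon, so that genes can be compared, CHMP4B had the highest level of the 39 in every group, with 704 units per kb in hypoxia EVs, 1255 in normoxia EVs, 475 in hypoxia cells and 511 in normoxia cells. CHMP5, CHMP2A, ARF6 and HGS were also among the higher ones: CHMP5 had 301, 493, 299.9, 404 units per kb in the same order. The lowest were CHMP3 in hypoxia EVs, with 4.70 units per kb, and CHMP4A in the other 3 groups, with 4.18 in normoxia EVs, 6.13 in hypoxia cells and 4.92 in normoxia cells. In hypoxia EVs 6 members, STAM2, VPS37A, VPS36, CHMP3, CHMP4A and CHMP4C, lay at or below the density on near-silent genes, and 13 were under 2 times it. In normoxia EVs CHMP3 and CHMP4A did, and in cells 0 members did. The median member stood at 2.83 times the near-silent density in hypoxia EVs, 10.5 times in normoxia EVs, 45.4 times in hypoxia cells and 63.6 times in normoxia cells. For members at or below that density, the EV value was no higher than signal on near-silent genes, so by this measure the RNA was not detectable above it. The measure depends on the length used, which counts the exon bases of all annotated isoforms. For VPS36 that is 7293 bases, against 4607 in its longest protein-coding transcript. With that density removed and libraries set to equal totals, the log2 differences of EVs from cells were larger for these members, at -5.29 for STAM2, -5.73 for VPS37A, -6.11 for VPS36 and -6.31 for CHMP3, values that depend on the pseudocount. They were also larger for VPS4B (-4.12), SDCBP (-3.90), PDCD6IP (-3.19), TSG101 (-2.64) and PDCD6 (-2.37), and all 9 remained called lower. Against the main fit, CHMP4A (-2.73), CHMP4C (-1.88) and MVB12B (-0.44) were newly called lower, and HGS (0.36), SNF8 (0.31) and CHMP5 (0.36) newly higher. The density removed was higher in EVs than in cells, so low EV values had to fall further relative to cells. The kept and new calls of lower at low EV values therefore add no support to the main fit. Over all genes the median moved from 0.32 to -0.27, with 9186 of 23454 lower and 5845 higher. The downward shift was thus not particular to these members.

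**Figure D4:**
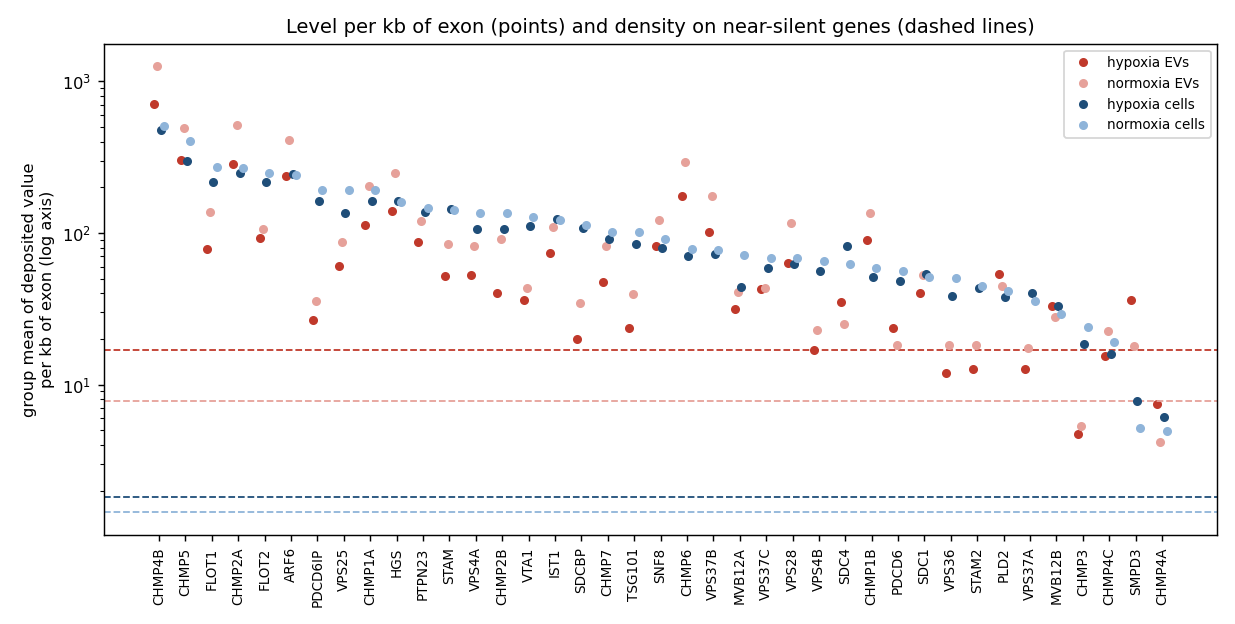
Group mean of the deposited value per kb of exon (vertical log axis) for the 39 members, ordered by their level in normoxia cells, with a dashed line for each group's density on near-silent genes. CHMP4B has the highest point in all 4 groups, and in hypoxia EVs 6 members lie at or below the dashed line at 16.9 units per kb.

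The second comparison asks what 24 h of hypoxia did to these RNAs in the cells. Of the 39 members, 12 fell (30.8%) and SDC4 rose (2.56%), against 22.4% lower and 8.01% higher, 30.4% in either direction, over all 17260 genes tested. The members' median log2 change was -0.15, against -0.07 over all genes. Among the 9897 protein-coding genes with at least 100 units in cells, 36.2% fell and 7.65% rose, with a median of -0.14. The changes were small next to those between EVs and cells: the furthest was MVB12A, at 1.63-fold lower. Hypoxia and normoxia cells did not overlap for any of the 13 genes called, nor for VPS37C, SNF8, SDCBP and SMPD3, which were not called. The calls rest on the same values and the share over all genes was not counted, so this adds no support to them.

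MVB12A, the ESCRT-I subunit, averaged 178 ± 14.6 units in hypoxia cells and 290.4 ± 29.7 in normoxia cells (SD, n = 3 each, log2 change -0.70 ± 0.12 SE, limma adjusted p = 4.33e-06). VPS25 of ESCRT-II averaged 324 ± 17.5 units in hypoxia cells and 462 ± 11.98 in normoxia cells (log2 change -0.51 ± 0.10 SE, limma adjusted p = 1.73e-05), and its partner VPS36 also fell (log2 change -0.41 ± 0.11 SE, limma adjusted p = 0.00223). CHMP5 of ESCRT-III averaged 717 ± 6.28 units in hypoxia cells and 966 ± 60.8 in normoxia cells (log2 change -0.43 ± 0.07 SE, limma adjusted p = 5.17e-06). These decreases of MVB12A, VPS25 and CHMP5 held in 14 of 15 alternative settings; the exception was a fit in which all 12 libraries share 1 estimate of spread, which ended every call in cells. VPS4A averaged 599 ± 30.1 units in hypoxia cells and 773 ± 39.2 in normoxia cells (log2 change -0.37 ± 0.08 SE, limma adjusted p = 0.000192) and FLOT1 687 ± 11.7 units in hypoxia cells and 867 ± 104 in normoxia cells (log2 change -0.33 ± 0.08 SE, limma adjusted p = 0.000792). PDCD6IP averaged 1462 ± 87.4 units in hypoxia cells and 1741 ± 96.6 in normoxia cells (log2 change -0.25 ± 0.06 SE, limma adjusted p = 0.00154), and CHMP2B 327 ± 9.85 units in hypoxia cells and 420.1 ± 17.1 in normoxia cells (log2 change -0.36 ± 0.10 SE, limma adjusted p = 0.00296).

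TSG101, CHMP1A, CHMP3 and FLOT2 fell by small amounts near the threshold (log2 changes -0.27 ± 0.10, -0.24 ± 0.09, -0.38 ± 0.15 and -0.20 ± 0.08 SE, limma adjusted p = 0.0325, 0.0225, 0.0455 and 0.0409). None of these 4 calls held with no filter, equal totals, TMM scaling, edgeR or DESeq2, and each was lost when normoxia cell replicate 3 was left out. Each was also lost without some other single libraries: normoxia replicate 2 and hypoxia replicates 1 and 3 for TSG101, normoxia replicate 2 and hypoxia replicates 2 and 3 for CHMP1A, normoxia replicate 1 and hypoxia replicates 1 and 2 for CHMP3, and normoxia replicate 1 and hypoxia replicates 2 and 3 for FLOT2. SDC4 averaged 214 ± 7.24 units in hypoxia cells and 163 ± 13.4 in normoxia cells (log2 change 0.40 ± 0.13 SE, limma adjusted p = 0.016). Its rise was lost when normoxia cell replicate 2, or hypoxia cell replicate 3, was left out. SMPD3 averaged 55.9 ± 5.05 units in hypoxia cells and 37.1 ± 13.5 in normoxia cells and missed the threshold (log2 change 0.65 ± 0.28 SE, limma adjusted p = 0.0663). The ESCRT-0 genes had log2 changes of 0.03 ± 0.07 SE for HGS, 0.02 ± 0.09 for STAM and -0.06 ± 0.11 for STAM2, and ARF6 of 0.01 ± 0.07 (limma adjusted p = 0.79, 0.912, 0.741 and 0.937).

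The scaling mattered for the count. With libraries set to equal totals, the median over all genes in cells shifted to 0.06, and over all genes 2304 were higher and 2043 lower, against 1383 and 3871 on the deposited scale. Of the members, MVB12A, VPS25, CHMP5, VPS4A and FLOT1 then fell, and SDC4 and SMPD3 rose.

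The start regions of 4 genes called in hypoxia cells are shown because hypoxia-inducible factors bind a short core motif, which was searched for as ACGTG or GCGTG on either strand in the 250 bases before and 50 after each RefSeq start (GRCh38.p14). VPS25, CHMP5 and VPS4A fell in hypoxia cells and SDC4 rose. The 250 bases before the start are printed 5′ to 3′ on the gene's strand, with motif matches in capitals, from chr17:42773199-42773448 (+ strand), chr9:33264799-33265048 (+ strand), chr16:69311100-69311349 (+ strand) and chr20:45348425-45348674 (- strand).
VPS25: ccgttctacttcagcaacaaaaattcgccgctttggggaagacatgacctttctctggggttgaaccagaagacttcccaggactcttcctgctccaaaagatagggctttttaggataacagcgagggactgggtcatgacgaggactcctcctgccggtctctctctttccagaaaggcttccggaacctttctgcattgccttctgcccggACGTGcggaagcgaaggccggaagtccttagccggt
CHMP5: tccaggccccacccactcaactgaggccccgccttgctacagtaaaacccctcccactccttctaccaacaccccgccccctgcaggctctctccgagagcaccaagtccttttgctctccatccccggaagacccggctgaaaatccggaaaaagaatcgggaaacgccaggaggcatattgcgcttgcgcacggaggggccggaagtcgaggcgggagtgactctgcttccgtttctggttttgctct
VPS4A: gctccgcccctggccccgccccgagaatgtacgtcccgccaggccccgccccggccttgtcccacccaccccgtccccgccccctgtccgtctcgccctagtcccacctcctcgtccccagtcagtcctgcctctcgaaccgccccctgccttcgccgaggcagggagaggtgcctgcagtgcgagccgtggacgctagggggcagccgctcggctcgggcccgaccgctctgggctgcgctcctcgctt
SDC4: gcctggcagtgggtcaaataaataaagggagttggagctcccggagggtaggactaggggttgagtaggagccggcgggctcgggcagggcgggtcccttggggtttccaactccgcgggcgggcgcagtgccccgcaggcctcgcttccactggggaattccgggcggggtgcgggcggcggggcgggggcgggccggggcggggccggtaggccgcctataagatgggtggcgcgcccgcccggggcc
VPS25 holds 1 match and the other 3 hold 0 in this window. Of 30 members with a promoter in the RefSeq table, 19 hold a match (63.3%), against 48.4% of 27305 promoters. Among members with a promoter, 6 of the 11 that fell in hypoxia cells hold a match, 0 of the 1 that rose and 13 of the 18 not called. A match describes letters in the window only.

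The third comparison sets EVs of hypoxia cultures against EVs of normoxia cultures. Of the 39 members, 8 were lower in hypoxia EVs (20.5%), namely HGS, VPS28, VPS37B, CHMP1A, CHMP2A, CHMP2B, CHMP4B and ARF6, and 0 were higher with limma, edgeR or DESeq2. At an unadjusted limma p under 0.05, 17 were lower and 1 was higher. Over all 27904 genes tested, 6.62% were lower and 5.68% higher, 12.3% in either direction. The members' median log2 change was -0.57, against 0.60 over all genes and -0.44 over the 9897 protein-coding genes with at least 100 units in cells, of which 17.4% were lower and 0.889% higher. These calls rest on the scale and on single libraries. With equal totals 0 members were lower and SMPD3, PDCD6, PLD2 and MVB12B were higher (log2 changes 1.78, 0.92, 0.83 and 0.82 with limma), while over all genes the calls turned to 4213 higher and 188 lower, against 1586 and 1846 on the deposited scale, and the median over all genes shifted to 1.13.

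CHMP4B averaged 1159.6 ± 211 units in hypoxia EVs and 2065 ± 339 in normoxia EVs (SD, n = 3 each, log2 change -0.84 ± 0.22 SE, limma adjusted p = 0.0242). ARF6 averaged 915 ± 103 units in hypoxia EVs and 1581 ± 243 in normoxia EVs (log2 change -0.78 ± 0.21 SE, limma adjusted p = 0.027), and HGS averaged 1159 ± 218 units in hypoxia EVs and 2048 ± 650.1 in normoxia EVs (log2 change -0.79 ± 0.24 SE, limma adjusted p = 0.0396). Hypoxia EVs lay below normoxia EVs in every library for these 3 genes. VPS37B and VPS28 of ESCRT-I and CHMP1A and CHMP2A of ESCRT-III also fell without overlap (log2 changes -0.79 ± 0.23, -0.87 ± 0.26, -0.83 ± 0.25 and -0.82 ± 0.24 SE, limma adjusted p = 0.032, 0.0374, 0.0363 and 0.032). CHMP2B averaged 125 ± 55.8 units in hypoxia EVs and 281 ± 136 in normoxia EVs, with overlapping ranges (log2 change -1.14 ± 0.38 SE, limma adjusted p = 0.0485). All 8 calls were lost when any single EV library other than normoxia EV replicate 3 was left out. The members' median log2 change was then -0.51 to -0.59, and over all genes 7 to 279 were called lower. Without normoxia EV replicate 3, 18 members were lower and SMPD3 was higher (log2 change 1.62), while 3934 of 27979 genes were lower and 6144 higher. That library had a near-silent density of 11.7 units per kb, against 4.79 and 6.92 in the other 2 normoxia EV libraries, and the part of this in the calls was not tested.

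SMPD3 averaged 257 ± 49.6 units in hypoxia EVs and 129 ± 76.3 in normoxia EVs, with no overlap between libraries, and missed the threshold (log2 change 1.22 ± 0.42 SE, limma adjusted p = 0.0559). SDC4 averaged 90.8 ± 13.1 units in hypoxia EVs and 65.3 ± 52.6 in normoxia EVs (log2 change 1.13 ± 0.71 SE, limma adjusted p = 0.244). PDCD6IP, SDCBP and TSG101 did not pass either (log2 changes -0.37 ± 0.29, -0.73 ± 0.40 and -0.66 ± 0.42 SE, limma adjusted p = 0.357, 0.186 and 0.252).

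**Figure D5:**
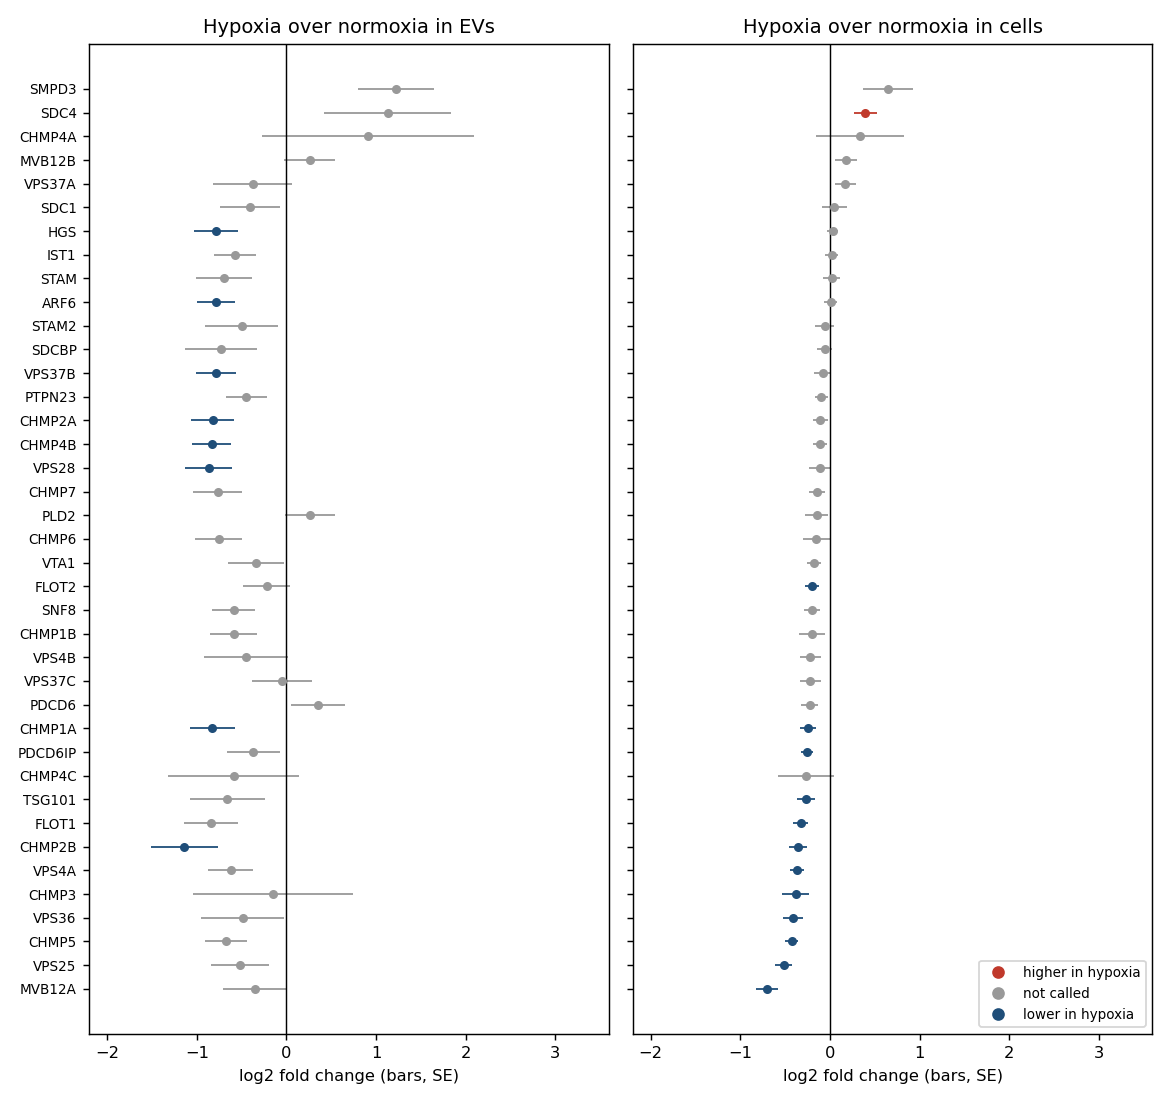
Log2 fold change of hypoxia over normoxia for the 39 members in EVs (left panel) and cells (right panel), ordered by the change in cells, with SE bars from limma over 6 libraries each. In cells 12 members are lower and SDC4 is higher; in EVs 8 are lower, and the error bars are wider.

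Whether hypoxia changed a member differently in EVs and in cells was tested as an interaction over all 12 libraries. With limma, 0 of the 39 members passed the adjusted threshold, against 0.443% higher and 1.87% lower, 2.31% in either direction, over 24171 genes. At an unadjusted limma p under 0.05, 10 members were lower and 1 was higher, and edgeR called 4 members lower and DESeq2 5, of 1479 and 1674 genes called lower by these tools. The members' median difference in log2 change was -0.39, against 0.23 over all genes and -0.29 over the protein-coding genes with at least 100 units in cells. ARF6 came closest, with -0.79 ± 0.21 SE (limma adjusted p = 0.0501): it averaged 915 ± 103 units in hypoxia EVs and 1581 ± 243 in normoxia EVs, against 941 ± 69.3 units in hypoxia cells and 933 ± 15.3 in normoxia cells. CHMP4B and VPS37B followed it in adjusted p (differences -0.73 ± 0.23 and -0.70 ± 0.24 SE, limma adjusted p = 0.0891 and 0.108).

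Genes outside the 39 that work with them were read from a pair of lists. Of 28 ESCRT accessory and partner genes, 16 were lower in EVs than in cells and 4 were higher, with a median log2 difference of -0.78. Those with the smallest p were EPS15, an endocytic adaptor, NDFIP1, an adaptor of NEDD4-type ubiquitin ligases, and WWP1, such a ligase (log2 changes -2.24 ± 0.12, -2.80 ± 0.15 and -2.62 ± 0.17 SE, limma adjusted p = 5.29e-12, 6.31e-12 and 4.55e-11). In hypoxia cells 12 of the 28 fell and 0 rose with limma (13 and 0 at an unadjusted p under 0.05), with a median of -0.16. SPAST, the microtubule-severing ATPase spastin, TOM1L1, a ubiquitin-binding adaptor, and MITD1, an abscission factor, led them (log2 changes -0.56 ± 0.10, -0.53 ± 0.11 and -0.49 ± 0.10 SE, limma adjusted p = 3.12e-06, 0.00011 and 0.000111). In hypoxia EVs 3 fell and 0 rose against normoxia EVs with limma (8 and 0 at an unadjusted p under 0.05): USP8, a deubiquitinase that acts on ESCRT-0, EPS15 and UBAP1, an ESCRT-I subunit (log2 changes -1.02 ± 0.23, -0.88 ± 0.29 and -0.70 ± 0.23 SE, limma adjusted p = 0.0155, 0.0479 and 0.0497).

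Of 16 syndecan-syntenin and ceramide partners, 8 were lower in EVs than in cells and 4 were higher, with a median of -0.30. CD2AP, an adaptor of membrane and actin, and EXT2, a heparan sulfate polymerase subunit, were lower, and PSD, an exchange factor for ARF6, was higher (log2 changes -1.45 ± 0.14, -1.04 ± 0.11 and 1.92 ± 0.25 SE, limma adjusted p = 1.83e-08, 1.24e-07 and 1.39e-06). In hypoxia cells 3 fell and EXT1, the other heparan sulfate polymerase subunit, rose, with a median of -0.04. Beside EXT1, those with the smallest p were CD2AP and SMPD2, another neutral sphingomyelinase (log2 changes 0.31 ± 0.09, -0.28 ± 0.07 and -0.66 ± 0.17 SE, limma adjusted p = 0.00694, 0.000754 and 0.00206). In hypoxia EVs CD2AP fell against normoxia EVs (-0.83 ± 0.27 SE, limma adjusted p = 0.0455), and 0 rose (3 and 0 at an unadjusted p under 0.05). In neither list did a gene pass the interaction test with limma; at an unadjusted p under 0.05, 5 of the accessory genes were lower and 0 of the partners differed. Over all genes tested, 31.8% were lower and 43.1% higher in EVs than in cells. In hypoxia cells 22.4% of all genes fell and 8.01% rose, and in hypoxia EVs 6.62% and 5.68%. The interaction called 2.31% of all genes in either direction. Most genes of both lists averaged at least 100 units in cells. Among all protein-coding genes at that level, 65.25% were lower and 13.1% higher in EVs. In hypoxia cells 36.2% of them fell and 7.65% rose, and in hypoxia EVs 17.4% and 0.889%.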

How the data were processed

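RNA was sequenced from 12 libraries of transfected HEK293 cells and their EVs, grouped by sample title. The deposited table holds a normalized signal per gene, which the authors made from read counts. Per the submitters' processing notes, the tools were Bowtie 0.12.2 and DESeq2 1.30.1, and the build is written both hg38 and GRCh38; no source used here gives the counter, annotation or strand setting. In each library, values came out as whole multiples of 1 step (tolerance 0.01), so whole reads were recovered for the count tests. SMARTer stranded total RNA libraries were used, per the labels' protocols. Near-silent density, in units per kb, and a floor of 3 reads describe depth.

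Values were tested as log2(value + 1) with limma 3.58.1 (trend, R 4.3.3) over genes averaging at least 10 units, with Benjamini-Hochberg adjustment over all genes tested and a threshold of 0.05. Hypoxia was tested within cells and within EVs over 6 libraries each, and EVs against cells and the interaction over all 12. The limma script was tested on simulated data. edgeR 4.0.16, DESeq2 1.42.0, TMM factors, equal library totals, removal of the near-silent density together with equal totals, a pseudocount of 5, no filter, 1 shared fit, a replicate block and leaving out each library were alternatives. Positions and exon lengths are from GENCODE 29, which holds 52338 of the 57773 gene identifiers; promoters are from RefSeq.

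Members and lists were chosen with earlier results of these data known. Values in every library are given for members past the threshold in at least 1 comparison without overlap, and for the highest and lowest member per length of each role; the rest by range. Of each list, up to 3 genes with the smallest p are named. Replicates differed by more than counting error (chi-square per degree of freedom of 5.05 to 13.4), so none were merged.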

Additional observations from a re-analysis of the deposited data

How the results depend on the processing

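No member reversed its direction under any alternative in the comparisons that called it. Of the 31 calls between EVs and cells, 26 held in all 20 alternatives (5 higher, 21 lower). In cells the counts of members higher and lower were 2 and 5 with equal totals, 2 and 8 with TMM factors, 1 and 4 with the near-silent density removed and equal totals together, and 0 and 0 with all 12 libraries in 1 fit; leaving out single libraries gave 0 to 1 higher. In EVs they were 1 and 11 with a pseudocount of 5, 0 and 5 with no filter, 4 and 0 with equal totals, 0 and 0 with the density removed and equal totals together, 0 and 15 with DESeq2 and 1 and 20 with all 12 libraries in 1 fit; leaving out single libraries gave 0 to 1 higher and 0 to 18 lower. For the interaction 1 member was higher with equal totals, 1 was lower with a pseudocount of 5, with TMM factors and with the density removed and equal totals together, 4 with edgeR and 5 with DESeq2, and 0 to 13 when single libraries were left out. The cause of these shifts was not tested. The replicate numbers showed no sign of pairing the samples: same-number correlations ran from -0.117 to 0.0614, and 3 of 12 libraries correlated best with their own number. Counting noise could hide a pairing in this check, so it cannot tell whether the samples were paired. With a replicate block the counts higher and lower were 1 and 12 in cells, 1 and 12 in EVs, 8 and 22 for EVs against cells and 0 and 0 for the interaction. A floor of 3 reads is 5.38 units in hypoxia EVs, 6.13 in normoxia EVs, 1.58 in hypoxia cells and 1.54 in normoxia cells, and depth limits CHMP4A, CHMP3 and CHMP4C in EVs, and SDC4 in normoxia EV replicate 1, where its 7.14 units are 3 reads.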
